A study of Mus musculus with 12 samples.

Results

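The 5 neurofilament genes Nefl, Nefm, Nefh, Ina and Prph were followed in whole mouse spinal cord. They were taken by symbol from both count tables, and each symbol matched 1 of the 56953 genes listed. Messenger RNA had been sequenced from 12 animals in 4 groups of 3: libraries labelled Ddx20 cKO and Control at 4 weeks after tamoxifen, and libraries labelled Ddx20 cKO and Control at 4.5 weeks after tamoxifen. The cKO animals carried Ddx20 alleles flanked by loxP sites together with the Plp-CreER transgene, whose Plp promoter is active in oligodendrocyte-lineage cells and whose recombinase acts after tamoxifen. The labels do not give the alleles of the control animals, nor the age or strain of any animal.

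Neurofilaments are the intermediate filaments of axons, built from chains that coil around each other and assemble end to end. The light chain Nefl forms the core, the medium chain Nefm and the heavy chain Nefh add long phosphorylated tails that help set axon calibre, and Ina (alpha-internexin) is the further chain of central neurons. Prph (peripherin) is most abundant in neurons that send axons into peripheral nerves, such as spinal motor neurons and sensory ganglion neurons. The light chain is released when axons are damaged and is used as a fluid marker of that damage.

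The 12 libraries held 33104560 to 47677267 estimated counts each, and each of the 5 genes had at least 2038 counts in every library. Levels are given as CPM, counts relative to the library size after scaling by trimmed mean of M values. Transcripts of the targeted gene Ddx20 showed no loss in animals carrying the cKO label: 10.2, 11.1 and 9.9 CPM against 11, 9.78 and 11.1 CPM in controls at 4 weeks, and 12.4, 11.1 and 13.3 CPM against 9.16, 10.6 and 9.71 CPM in controls at 4.5 weeks, when the gene was called higher (log2 fold change 0.33, adjusted p 0.013). Gene-level counts cannot show whether an exon is missing, so the genotype rests on the labels. Among the markers of cord position, Hoxc8 held 30.7 to 107 CPM, Hoxc6 13.7 to 34.5 CPM, and Hoxa9 and Hoxc9 4.06 to 14.3 CPM. Hoxc10 held only 0.149 to 1.265 CPM and Hoxd10 at most 0.269 CPM. Of the forebrain genes Emx1 and Tbr1 held at most 0.348 CPM and Neurod6 held 1.18 to 3.32 CPM. Control library 1 of 4.5 weeks stood apart in genes of sensory ganglion neurons and Schwann cells, and control library 2 of 4.5 weeks in skeletal muscle genes, with summed levels of 127, 258 and 143 CPM against at most 37.3, 159 and 34.7 CPM in any other library. Xist counts read the controls of 4 weeks as male, libraries 1 and 2 labelled cKO of 4 weeks as female and library 3 as male, and all 6 libraries of 4.5 weeks as female.

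At 4.5 weeks all 5 genes were lower in cKO-labelled cords, Nefm and Nefh to about 20% of the control level. At 4 weeks only Ina was called lower. The threshold for a call was an adjusted p of 0.05 in edgeR's quasi-likelihood test over all 19278 genes tested, which is also the source of each adjusted p given for a gene below. Of all genes tested, 32.6% were called lower at 4.5 weeks, beside 5 of these 5, and 17.2% at 4 weeks, beside 1 of 5. At 4 weeks 0 of the 5 were called higher by this test, as by DESeq2 and limma-voom, beside 20.1% of all genes, and 1 of them, Prph, was higher at an unadjusted p below 0.05. All 3 libraries labelled cKO lay below all 3 controls for 5 of 5 genes at 4.5 weeks, beside 35.6% of all genes tested, and for 2 of 5 at 4 weeks, Nefh and Ina, beside 23.1%. The median log2 fold change of the 5 genes was -1.96 at 4.5 weeks and -0.23 at 4 weeks, beside medians of 0.0212 and 0.00716 over all genes tested. In whole cord, fewer neurons and less of a transcript per neuron cannot be told apart.

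**Figure D1:**
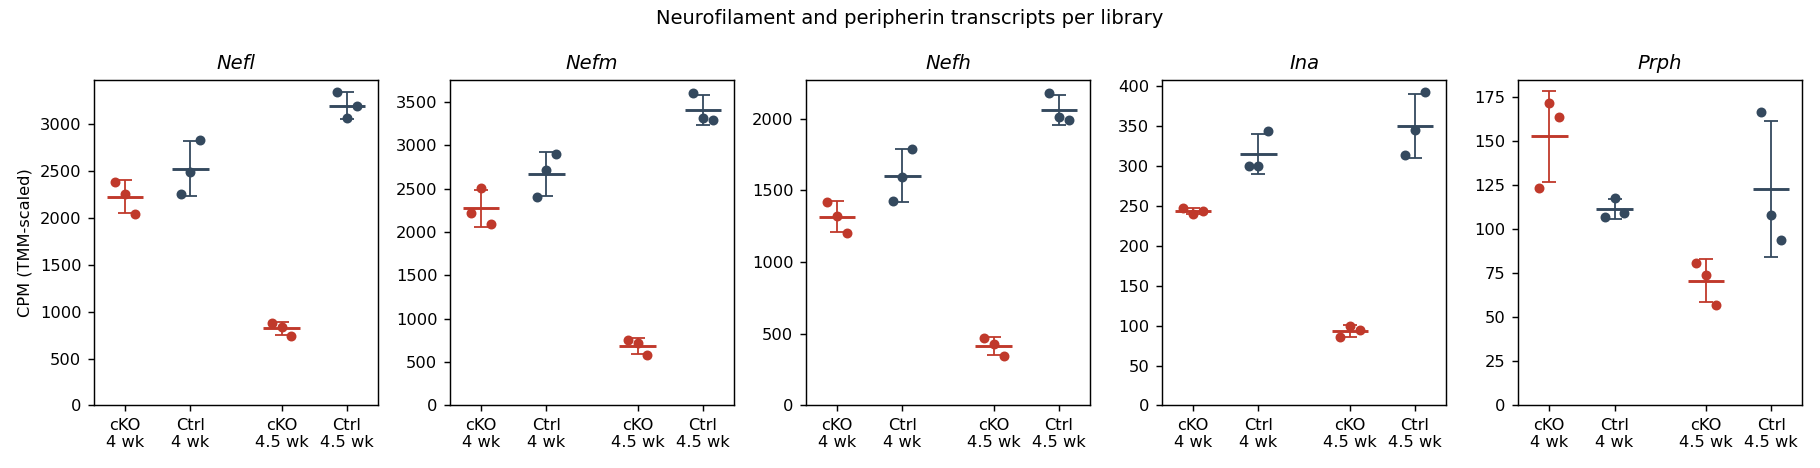
Level of each gene in CPM (vertical axes, from 0) in every library, by group (horizontal axes). Points are libraries, long bars are group means and error bars are SD over 3 libraries. In cKO-labelled cords at 4.5 weeks, all 5 genes lie below every control of that time, while at 4 weeks Nefl and Nefm overlap with controls.

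The light chain Nefl held 882, 836 and 744 CPM in cKO-labelled cords at 4.5 weeks, against 3341, 3062 and 3190 CPM in controls. All 3 libraries labelled cKO lay far below all 3 controls. The log2 fold change was -1.96 ± 0.0981 (SE), or 25.7% of the control level (adjusted p 3.5e-09). At 4 weeks Nefl held 2381, 2259 and 2036 CPM in cKO-labelled cords and 2258, 2488 and 2832 CPM in controls. The groups overlapped, and the log2 fold change of -0.18 (95% interval -0.388 to 0.023) was not called (adjusted p 0.15). It was not called in any of 24 alternatives either, but its size was not firm, at -0.09 without control library 3 of 4 weeks, -0.26 without control library 1 of 4 weeks and -0.31 with a sex term (adjusted p 0.065 to 0.49 over the alternatives). With the sex term the 4-week effect rests on 1 male library labelled cKO.

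The medium chain Nefm, whose gene lies next to Nefl on chromosome 14, held 758, 725 and 577 CPM in cKO-labelled cords at 4.5 weeks and 3603, 3315 and 3290 CPM in controls. This was 20.2% of the control level (log2 fold change -2.31 ± 0.114, adjusted p 3.2e-09). At 4 weeks it held 2223, 2506 and 2092 CPM in cKO-labelled cords and 2399, 2716 and 2902 CPM in controls. Library 2 labelled cKO lay within the range of the controls, and the log2 fold change of -0.23 was not called (adjusted p 0.11).

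The heavy chain Nefh, on chromosome 11, held 472, 428 and 347 CPM in cKO-labelled cords at 4.5 weeks and 2180, 2015 and 1992 CPM in controls. The fall matched that of Nefm in size, at 20.2% of the control level (log2 fold change -2.31 ± 0.119, adjusted p 4.3e-09). At 4 weeks Nefh held 1422, 1319 and 1206 CPM in cKO-labelled cords and 1428, 1591 and 1793 CPM in controls. A narrow gap, between 1422 and 1428 CPM, separated the groups, and the log2 fold change of -0.29 was not called (adjusted p 0.065). It was called in 5 of 24 alternatives: with the Wald test of DESeq2 (-0.30, adjusted p 0.022), without library 1 labelled cKO of 4 weeks (-0.36, adjusted p 0.033), without control library 1 of 4 weeks (-0.37, adjusted p 0.04), and without library 1 or library 3 labelled cKO of 4.5 weeks, which share the estimate of spread (-0.29, adjusted p 0.048 and 0.031).

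Ina, on chromosome 19, was the chain called at 4 weeks. It held 248, 240 and 244 CPM in cKO-labelled cords and 299.9, 300.4 and 344 CPM in controls (log2 fold change -0.37 ± 0.0858, adjusted p 0.005). The libraries labelled cKO lay close together and below every control. At 4.5 weeks Ina held 85.8, 100.1 and 94 CPM in cKO-labelled cords and 314, 345 and 393 CPM in controls, or 26.6% of the control level (-1.91 ± 0.089, adjusted p 2.1e-09). The call at 4 weeks was lost with a sex term, at nearly the same size (-0.37, adjusted p 0.061), a fit in which that effect rests on 1 male library labelled cKO.

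Prph, on chromosome 15, lay above controls at 4 weeks and below them at 4.5 weeks. At 4 weeks it held 123, 171 and 164 CPM in cKO-labelled cords and 107, 118 and 109 CPM in controls. All 3 libraries labelled cKO lay above all 3 controls, as they did for 24.1% of all genes tested, yet the log2 fold change of 0.46 ± 0.192 was not called (adjusted p 0.08). At 4.5 weeks Prph held 80.8, 74.2 and 57.2 CPM in cKO-labelled cords and 166, 108 and 93.6 CPM in controls. The groups did not overlap, and Prph was at 57.6% of the control level (-0.80 ± 0.194, adjusted p 0.0028). The highest control was library 1, the one with ganglion transcripts.

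Of the 5 genes, the promoter table held Ina and Prph, the chain called lower at 4 weeks and the one that lay above controls there, and their windows are shown for that contrast. Each covers the 120 bases before the annotated start, 5′ to 3′ on the plus strand of the RefSeq build GRCm38.p6, at chr19:47014561-47014680 for Ina and chr15:99055054-99055173 for Prph. Capitals mark TATAAA, the letters of a TATA box, and GGGCGG, a GC box letter string, each searched on both strands.
Ina: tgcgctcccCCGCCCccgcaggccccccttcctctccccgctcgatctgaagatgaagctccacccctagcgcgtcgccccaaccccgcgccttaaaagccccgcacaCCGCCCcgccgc
Prph: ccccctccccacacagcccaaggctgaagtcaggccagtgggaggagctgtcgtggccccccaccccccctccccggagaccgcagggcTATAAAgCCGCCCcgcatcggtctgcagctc
Prph held TATAAA from 31 bases before the start and GGGCGG on the minus strand from 24 bases before it, and Ina held GGGCGG on the minus strand at 2 places and no TATAAA. The marked letters do not overlap. Of 32851 windows of the same length, 6.34% held TATAAA and 26.5% held GGGCGG.

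**Figure D2:**
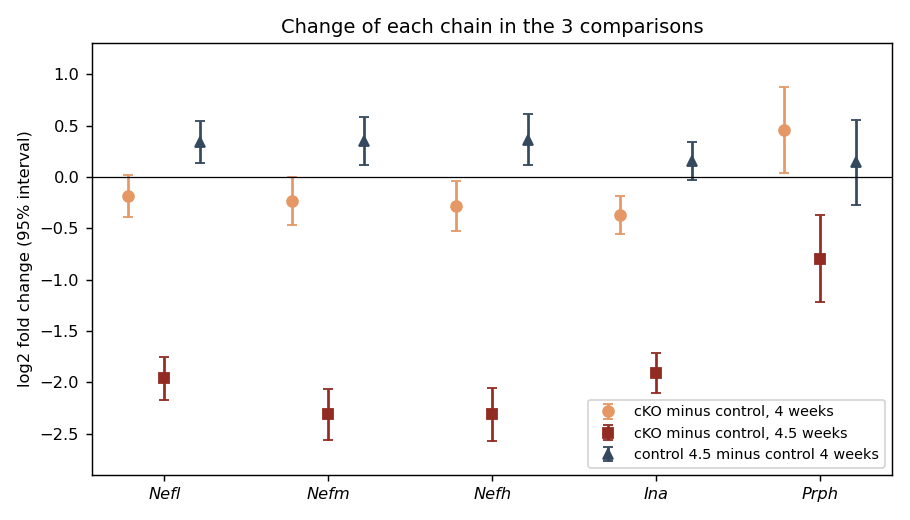
Log2 fold change of each gene (vertical axis) with its 95% interval, for cKO minus control at 4 weeks, cKO minus control at 4.5 weeks, and control at 4.5 minus control at 4 weeks. The 4 chains other than Prph lie between -1.91 and -2.31 at 4.5 weeks and Prph at -0.80, while the 4-week values lie between -0.37 and 0.46.

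The change between times was tested in the same model. The cKO effect at 4.5 weeks minus that at 4 weeks was below 0 and called for all 5 genes, at -1.78 for Nefl, -2.08 for Nefm, -2.03 for Nefh, -1.54 for Ina and -1.25 for Prph on the log2 scale (adjusted p between 9.8e-07 and 0.0026). Of all genes tested, 21.9% were called in that direction. Between cKO-labelled cords themselves, 5 of 5 were called lower at 4.5 than at 4 weeks, against 28.8% of all genes, with Nefm at 30.2% and Prph at 46.3% of the 4-week level. In controls Nefl (0.34, adjusted p 0.029), Nefm (0.35, adjusted p 0.046) and Nefh (0.36, adjusted p 0.046) were called higher at 4.5 than at 4 weeks, against 9.53% of all genes, and Ina and Prph were not called.

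These 3 control calls did not hold in every subset: without either of the controls 1 and 2 of 4 weeks, or any 1 control of 4.5 weeks, 0 of the 5 genes were called by edgeR's quasi-likelihood test, although with all libraries the 3 had an unadjusted p below 0.05 and were also called by the Wald test of DESeq2 and by limma-voom. The control groups differed in sex as well as in time, and with a sex term the values were 0.15 for Nefl, 0.17 for Nefm and 0.18 for Nefh (adjusted p 0.8 to 0.81). Only the cKO-labelled group of 4 weeks held both sexes, so that term rests on 1 male library labelled cKO. Between these controls sex and time cannot be told apart. The times were deposited as separate tables, so time and any difference in handling cannot be told apart.

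Together the 5 genes held 0.228%, 0.22% and 0.186% of all counts in cKO-labelled cords at 4.5 weeks, against 0.938%, 0.853% and 0.839% in controls. At 4 weeks they held 0.662%, 0.685% and 0.601% in cKO-labelled cords and 0.643%, 0.708% and 0.781% in controls. The shares overlapped at 4 weeks and were far apart at 4.5 weeks.

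To set the genes side by side, CPM was divided by the length in kilobases of the first-numbered transcript of each gene in GENCODE M21, 1757 bases for Prph and 3240 to 3994 bases for the others. In cKO-labelled cords at 4.5 weeks Nefl averaged 243 ± 21 and Nefm 206 ± 29 CPM per kilobase (SD, n = 3), followed by Nefh at 104 ± 16, Prph at 40.2 ± 6.9 and Ina at 28.8 ± 2.2. In controls of that time Nefm averaged 1021 ± 52 and Nefl 946 ± 41, followed by Nefh at 516 ± 26, Ina at 108 ± 12 and Prph at 69.9 ± 22. Nefl and Nefm overlapped in each of these groups. On this scale Ina and Prph changed places. The highest Ina library labelled cKO, at 30.9, lay below the lowest Prph library, at 32.6. In controls the lowest Ina library, at 96.9, lay above the highest Prph library, at 94.8. Before division by length Ina lay above Prph in both groups, at 85.8 to 100.1 against 57.2 to 80.8 CPM in cKO-labelled cords. The order therefore depends on the transcript lengths used.

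At 4 weeks Nefm and Nefl again overlapped at the top. In cKO-labelled cords Nefm averaged 682 ± 63, Nefl 658 ± 52 and Nefh 329 ± 27 CPM per kilobase, and in controls 802 ± 76, 747 ± 85 and 402 ± 46. Prph averaged 86.9 ± 15 and Ina 75.3 ± 1.2 in cKO-labelled cords, with ranges that overlapped, against 63.3 ± 3.3 for Prph and 97.1 ± 7.8 for Ina in controls, which did not.

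The balance among the chains was read as the log2 ratio of each gene's counts to those of Nefl within a library, which does not depend on library scaling. With 3 against 3 libraries the exact 2-sided permutation test cannot give a p below 0.1, and over the 8 ratios compared that value adjusts to 0.133. At 4.5 weeks the ratio of Nefm was -0.22, -0.21 and -0.37 in cKO-labelled cords and 0.11, 0.11 and 0.04 in controls. The groups lay apart, by -0.35 (exact permutation p 0.1). The ratio of Nefh was -0.90, -0.97 and -1.10 in cKO-labelled cords and -0.62, -0.60 and -0.68 in controls, a difference of -0.36 (exact permutation p 0.1). In both ratios every library labelled cKO lay below every control.

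At 4 weeks the Nefh ratio was already apart, by a small margin: -0.74, -0.78 and -0.76 in cKO-labelled cords and -0.66, -0.65 and -0.66 in controls (difference -0.10, exact permutation p 0.1). The Nefm ratio overlapped between groups at 4 weeks (difference -0.05, exact permutation p 0.7). Ina differed from Nefl by -0.19 at 4 weeks (exact permutation p 0.1) and by 0.06 at 4.5 weeks, where the groups overlapped (exact permutation p 0.6).

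The Prph ratio of each cKO-labelled cord lay above that of every control at both times. At 4.5 weeks it was -3.45, -3.50 and -3.70 against -4.33, -4.82 and -5.09 in controls (difference of the means 1.20, exact permutation p 0.1). At 4 weeks it was -4.27, -3.72 and -3.64 against -4.40, -4.40 and -4.70 in controls (difference 0.62, exact permutation p 0.1). Library 1 labelled cKO at 4 weeks lay nearest the controls.

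**Figure D3:**
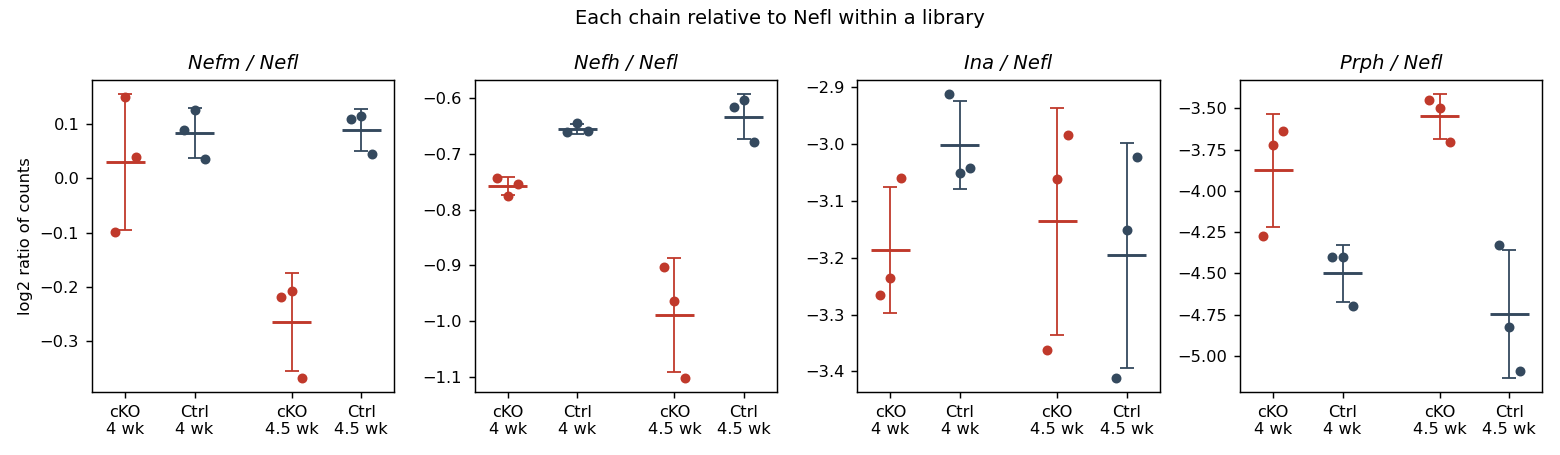
Log2 ratio of the counts of Nefm, Nefh, Ina and Prph to those of Nefl (vertical axes, each with its own range) in every library, by group. Points are libraries, long bars group means and error bars SD over 3 libraries. At 4.5 weeks Nefm and Nefh of cKO-labelled cords lie below every control, Prph lies above every control at both times, and Ina overlaps at 4.5 weeks.

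In the annotation GENCODE M21 (GRCm38), the largest overlap of an Nefm exon with an Nefl exon, on the opposite strand, was 1108 bases. That of an Ina exon with an exon of Nt5c2, a nucleotidase gene on the opposite strand, was 456 bases. The TruSeq RNA v2 kit does not mark strand, so reads in those bases cannot be assigned by strand, and the annotation release used for the counts is not given in the sources used here. The Nefm to Nefl ratio carries that uncertainty, and so do the other ratios, through Nefl as their denominator. The levels of Nefl, Nefm and Ina carry it as well.

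Prph was read beside markers of sensory ganglion neurons, in which it is abundant, and of Schwann cells. Over the 12 sensory ganglion markers, summed levels were 25.8 to 37.3 CPM in cKO-labelled cords and 9.82 to 11.8 CPM in controls at 4 weeks, and 17.9 to 20.9 CPM in cKO-labelled cords against 127, 9.18 and 11 CPM in controls at 4.5 weeks. Of the 12, 5 passed the filter on low counts. At 4 weeks 2 of these were called higher, beside 20.1% of all genes tested, and 3 were not called. The 2 were Avil, an actin-binding protein of sensory neurons, at 15.5 to 23.5 CPM against at most 0.742 CPM in controls, and Trpv1, the capsaicin receptor. At 4.5 weeks 3 were called lower, beside 32.6% of all genes tested, and 2 were not called, against controls that include library 1. Avil then held 10.1 to 13.1 CPM in cKO-labelled cords against 36.1, 0.259 and 0.627 CPM in controls 1, 2 and 3. Trpv1 held 1.66 to 2.41 CPM against 3.47, 0 and 0.112 CPM. Both genes thus stayed above controls 2 and 3 at that time. The defining sodium channel genes of sensory neurons stayed near 0 in cKO-labelled cords. Over both times Scn10a held at most 0.219 CPM and Scn11a at most 0.126 CPM there. Controls of 4 weeks held at most 0.384 and 0.179 CPM of these genes. Mrgpra3 was at 0 in all 6 cKO-labelled cords, but held only 0.176 CPM even in control library 1 of 4.5 weeks. In control library 1 of 4.5 weeks Scn10a held 27.2 CPM and Scn11a 11 CPM. Summed levels of 7 markers of Schwann cells, which wrap the axons of nerve roots, were 14.4 to 59.6 CPM in cKO-labelled cords against 72.9 to 159 CPM in controls at 4 weeks, and 19 to 19.3 CPM against 258, 9.57 and 9.71 CPM in controls at 4.5 weeks.

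Without control library 1 of 4.5 weeks, the log2 fold change of Prph at 4.5 weeks was -0.52 (adjusted p 0.0092), against -0.80 with it. Without controls 1 and 2 together, an alternative chosen after the data were seen that leaves 1 control at that time, it was -0.41 and no longer called (adjusted p 0.089). At 4 weeks, with control library 1 of 4.5 weeks out of the shared model, the Prph value of 0.46 was called (adjusted p 0.019), as it was when the 4-week libraries were fitted alone (0.45, adjusted p 0.019) and without library 1 labelled cKO of 4 weeks (0.58, adjusted p 0.035). The other 4 genes at 4.5 weeks were nearly the same without that library, at -1.93 for Nefl, -2.27 for Nefm and Nefh and -1.99 for Ina. The part of these marker levels in the Prph values was not tested.

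**Figure D4:**
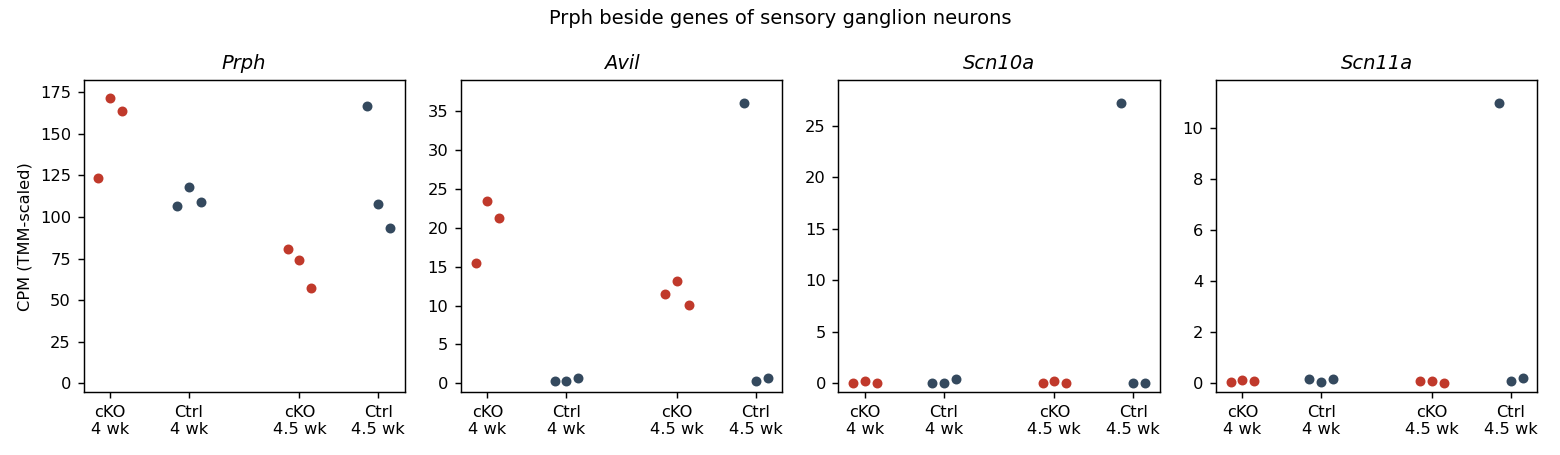
Levels in CPM (vertical axes) of Prph and of the sensory ganglion genes Avil, Scn10a and Scn11a in every library, by group. Control library 1 of 4.5 weeks is the highest control of its time for all 4 genes, and cKO-labelled cords have Avil but Scn10a and Scn11a near 0.

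Other neuronal genes were lower at 4.5 weeks too. Of 7 motor neuron genes 7 were called lower, with a median log2 fold change of -1.83, and their summed level was 221, 207 and 151 CPM in cKO-labelled cords and 550, 511 and 471 CPM in controls. Of 10 general neuron genes 9 were called lower, with a median of -1.22. The exception was Snhg11, a neuronal non-coding RNA chosen after its values were seen, which was higher (0.41, adjusted p 0.0068). The most abundant of the list in controls, the synaptic vesicle fusion gene Snap25, was among them (-2.01, adjusted p 4.6e-09). At 4 weeks 1 of 7 motor neuron genes (Chodl, -0.50, adjusted p 0.017) and 2 of 10 general neuron genes were called lower, with medians of -0.10 and -0.13. The share called lower over all genes tested was 32.6% at 4.5 weeks and 17.2% at 4 weeks, so the 4-week counts were near that share.

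The 5 genes were then set against the summed level of each list within a library, a comparison chosen after the values were seen, with 10 ratios per list. Relative to the motor neuron sum at 4.5 weeks, the log2 level of Nefl differed by -0.55, Nefm by -0.90 and Nefh by -0.90 in cKO-labelled cords from controls, with groups apart (exact permutation p 0.1, the smallest possible, adjusted 0.111 over the 10 ratios). Ina differed by -0.49 with groups that overlapped (exact permutation p 0.2), and Prph by 0.65 (exact permutation p 0.1). These values rest on Ret, a growth factor receptor gene that held 48.3% to 52.5% of the sum in cKO-labelled cords and 31% to 33.5% in controls. Without Ret, left out after the data were seen, the groups overlapped for Nefl (-0.10, exact permutation p 0.6) and Ina (-0.04, exact permutation p 0.9), and lay apart for Nefm (-0.45), Nefh (-0.45) and Prph (1.10, exact permutation p 0.1 each, adjusted 0.2). Relative to the general neuron sum the values were -0.95 for Nefl, -1.31 for Nefm, -1.31 for Nefh and -0.89 for Ina (exact permutation p 0.1 each, adjusted 0.167), and for Prph 0.25 with overlap (exact permutation p 0.4). Snhg11 held 31.3% to 34.6% of that sum in cKO-labelled cords and 11.3% to 14.1% in controls. Without it, also left out after the data were seen, the values were -0.56 for Nefl, -0.91 for Nefm, -0.91 for Nefh and -0.50 for Ina, with groups apart (exact permutation p 0.1 each, adjusted 0.167), and 0.64 for Prph with overlap (exact permutation p 0.2). At 4 weeks the groups lay apart for all 5 genes relative to the motor neuron sum (exact permutation p 0.1 each, adjusted 0.111). The values were -0.15 for Nefl, -0.20 for Nefm, -0.25 for Nefh, -0.33 for Ina and 0.47 for Prph. Without Ret the groups of 4 weeks lay apart only for Nefm (-0.15) and Nefh (-0.20). Relative to the general neuron sum at 4 weeks, Ina (-0.26) and Prph (0.55) lay apart, and Nefl, Nefm and Nefh overlapped.

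Partners of neurofilaments in the axon were lower as well, at 4.5 weeks with medians closer to 0 than the -1.96 of the neurofilament genes. At 4 weeks, where the neurofilament median was -0.23, this did not hold for every partner list. Of 16 microtubule and spectrin skeleton genes 16 were called lower at 4.5 weeks, with a median of -0.92, and 9 at 4 weeks, with a median of -0.28. Over all genes tested the shares called lower were 32.6% at 4.5 weeks and 17.2% at 4 weeks. The tubulin gene Tuba4a (-1.76, adjusted p 1e-09), the tubulin regulator Stmn3 (-1.42) and the tau gene Mapt (-1.13) had the smallest p at 4.5 weeks. At 4 weeks these were Mapt (-0.54, adjusted p 6.6e-05), the ankyrin Ank2 (-0.61) and the microtubule-associated gene Map1a (-0.56).

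Of 12 axonal transport motor genes 11 were called lower at 4.5 weeks, with a median of -0.99, and 8 at 4 weeks, with a median of -0.23, beside 32.6% and 17.2% of all genes tested. Those with the smallest p at 4.5 weeks were the kinesin light chains Klc1 (-1.25, adjusted p 7.5e-10) and Klc2 (-1.56) and the dynein chain Dync1i1 (-1.94). At 4 weeks they were the kinesin Kif1b (-0.59, adjusted p 0.00024), Klc1 (-0.27) and the dynactin subunit Dctn1 (-0.28). Myo5a, a myosin that binds neurofilaments, was the member not called at 4.5 weeks (-0.15, adjusted p 0.11) and was named after its value was seen.

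Of 17 genes of neurofilament kinases, turnover and mRNA binding 12 were called lower and 2 higher at 4.5 weeks, with a median of -0.50, and 9 were called lower and 8 not called at 4 weeks, with a median of -0.19. Over all genes tested, 32.6% were called lower and 33.3% higher at 4.5 weeks, and 17.2% lower at 4 weeks. Trim2, a ubiquitin ligase that acts on the light chain, had the smallest p at both times, with -1.34 at 4.5 weeks (adjusted p 5.9e-09) and -0.48 at 4 weeks (adjusted p 0.00021). It was followed at 4.5 weeks by the Cdk5 activator Cdk5r2 (-1.33), and at 4 weeks by Arhgef28 (-0.39), which binds light chain mRNA, and the kinase Gsk3b (-0.38). The 2 higher genes, named after their values were seen, were the RNA-binding gene Tardbp (0.23, adjusted p 0.00089) and the kinase Mapk3 (0.27, adjusted p 0.0082).

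Other intermediate filament genes were higher where they were called. Of 10 such genes 8 passed the filter on low counts. At 4.5 weeks 6 were called higher and 2 were not called, and at 4 weeks 5 were called higher and 3 were not, with medians of 0.74 and 0.99. Of all genes tested, 33.3% were called higher at 4.5 weeks and 20.1% at 4 weeks. The glial and mesenchymal chain Vim was higher by 3.42 at 4.5 weeks (adjusted p 2.3e-07) and by 2.27 at 4 weeks (adjusted p 3.7e-05). The lamin gene Lmna was higher by 1.01 and 1.54, and Nes, the chain of progenitors and reactive glia, by 1.69 and 1.98 at those times. Krt8 and Krt18, of epithelia, were the 2 that did not pass.

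**Figure D5:**
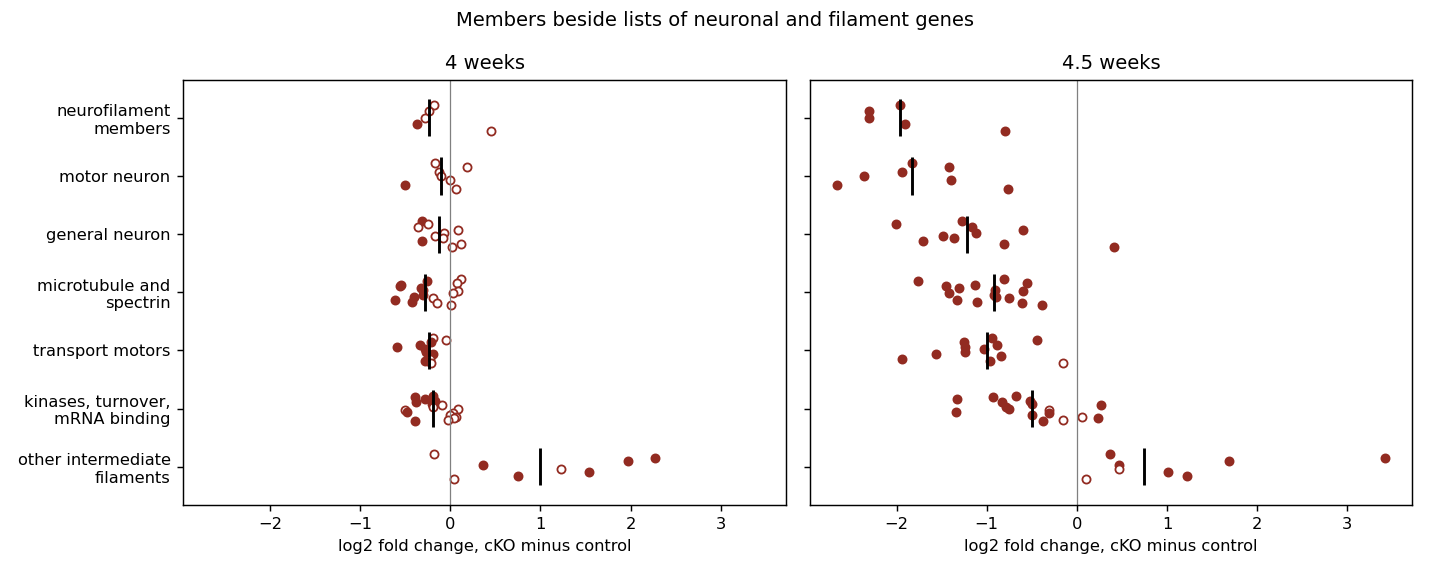
Log2 fold change, cKO minus control (horizontal axes), of the 5 neurofilament genes and of each tested gene of 6 lists, at 4 weeks (left) and 4.5 weeks (right). Filled points were called, open points were not, and black bars are medians. At 4.5 weeks the neurofilament median is -1.96 and the motor neuron median -1.83, while the other intermediate filament chains have a median of 0.74.

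Markers of glia moved in the same libraries. At 4.5 weeks the summed level of 6 microglial markers was 2998 to 3288 CPM in cKO-labelled cords and 313 to 321 CPM in controls, and that of 8 mature oligodendrocyte markers was 10202 to 11139 CPM against 29396 to 29859 CPM. At 4 weeks microglial markers summed to 622 to 882 CPM in cKO-labelled cords against 319 to 322 CPM in controls, and oligodendrocyte markers to 13763 to 18752 CPM against 32202 to 34758 CPM. All 8 oligodendrocyte markers were called lower at both times, and 6 microglial markers at 4.5 weeks and 5 at 4 weeks were called higher. Of 6 astrocyte markers 5 were called lower and 1 higher at each time. Over all genes tested, 32.6% were called lower and 33.3% higher at 4.5 weeks, and 17.2% and 20.1% at 4 weeks. The part of this change in RNA make-up in the neurofilament values was not tested.

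The genes most like each member were found by the root mean square difference of log2 CPM over the 12 libraries, each gene centred on its own mean, among 10779 named genes whose log2 CPM averaged 3 or more. For Nefl they were Rimkla, an enzyme that makes N-acetylaspartylglutamate (0.0863), Patj, a cell polarity scaffold (0.13), and Slc35f3, a transporter (0.132). For Nefm they were the endocytic adaptor Epn3 (0.161), the perineuronal net link protein Hapln4 (0.172) and the metalloproteinase Mmp9 (0.181), and for Nefh Epn3 (0.154), Hapln4 (0.165) and the synaptic vesicle gene Sv2b (0.175).

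For Ina they were Slc32a1, the vesicular transporter of inhibitory transmitters (0.0764), Ndrg4 (0.0796) and Faim2 (0.0845). The nearest of Prph were less close than those of Nefl and Ina: Sncg, or gamma-synuclein (0.165), the G protein subunit Gna14 (0.209) and the neuronal tubulin Tubb3 (0.215). Sncg held 126, 121 and 117 CPM in cKO-labelled cords and 84.7, 103 and 86.3 CPM in controls at 4 weeks, and 57.6, 57.6 and 42.4 CPM in cKO-labelled cords against 141, 70.4 and 77.4 CPM in controls at 4.5 weeks. Sncg was chosen for its likeness to Prph over these libraries, so a shared pattern follows from that choice. It lay above controls at 4 weeks, where it was not called (0.42, adjusted p 0.14). At 4.5 weeks it lay below them, and library 1 was its highest control.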

How the data were processed

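The deposited tables, 1 for each time, hold estimated counts per gene, on which the authors had put no depth or length scaling. The submitters' processing notes name STAR, RSEM and the build mm39, without roles or versions, and the annotation release is not given in the sources used here. Counts were rounded and filtered with edgeR's filter on low counts over the 4 groups, which left 19278 genes, and library sizes were scaled with trimmed mean of M values. A model with 4 group means was fitted to the 12 libraries together with edgeR 4.0.16 in R 4.3.3, and p-values of its quasi-likelihood F tests were adjusted over every gene by the Benjamini-Hochberg method. The test was checked on simulated data. Alternatives used DESeq2 1.42.0, limma-voom (limma 3.58.1), other scalings and filters, each time alone, a sex term, a replicate block and each library left out.

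The members, lists and tests were chosen with earlier results of these data known. Partner genes were named by the 3 smallest p-values per list and time, of which 1 gene is not reported here, and like patterns by the 3 smallest distances. Per the labels each group holds 3 independent mice, and within a group no pair of libraries agreed within sampling noise. Promoter windows came from RefSeq; Nefl, Nefm and Nefh had none in that table.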

Additional observations from a re-analysis of the deposited data

Results flagged for a closer look

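The effect of the cKO label differed between the times for all 5 genes, tested as a difference of effects in edgeR's quasi-likelihood model (4.5 minus 4 weeks, log2). The difference was -1.78 for Nefl (adjusted p 1.1e-06), -2.08 for Nefm (adjusted p 9.8e-07), -2.03 for Nefh (adjusted p 1.5e-06), -1.54 for Ina (adjusted p 1.4e-06) and -1.25 for Prph (adjusted p 0.0026). In Prph the value was below 0 at 4.5 weeks and above 0 at 4 weeks, and without control library 1 of 4.5 weeks the difference was -0.97 (adjusted p 0.0022).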

How the results depend on the processing

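At 4.5 weeks 5 of 5 genes were called lower under every alternative run except that Prph was not called without controls 1 and 2 of that time (-0.41, adjusted p 0.089), and the difference between the times was called for all 5 under each alternative that gave it. The 4-week count of 1 lower gene was 3 with the Wald test of DESeq2, 0 with a sex term, and 1 to 2 with single libraries left out. The 4-week count of 0 higher genes (1 at an unadjusted p below 0.05, Prph) was 1 without a filter, with each time fitted alone and without controls 1 and 2 of 4.5 weeks, and 0 to 1 with single libraries left out. The 3 calls between controls fell to 1 with upper quartile scaling and to 0 with a sex term and without controls 1 and 2 of 4.5 weeks, and were 0 to 3 with single libraries left out. Prph between controls (0.14) was -0.14 without control library 1 of 4.5 weeks and -0.25 without controls 1 and 2, and lay between -0.139 and 0.303 with single libraries left out. The causes were not tested. With single libraries left out, the Nefm to Nefl ratio at 4 weeks lay between -0.113 and 0.0111, and the Ina to Nefl ratio at 4.5 weeks between -0.0489 and 0.172.

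Same-numbered animals were treated as unpaired, since the labels describe independent mice. Deviations from group means correlated between -0.165 and 0.205 over 18 same-number pairs, 1 above 0.1. Pairs with different numbers reached -0.302 and 0.288. With so few libraries per group these correlations cannot show what the design was. With a replicate block the calls between controls fell to 0, and no call between cKO and control changed.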
